A study of Mus musculus with 31 samples.

Results

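The genes described here encode the protein components of the cytosolic ribosome. They were chosen by symbol, as genes named Rpl or Rps followed by a digit together with Rplp0 to Rplp2 and Rpsa, leaving out the Rps6k kinases, pseudogene-like names and paralogs with an L suffix. Of 8974 named genes measured, 53 were members, 22 of the small subunit and 31 of the large one. Rps19bp1, which encodes a binding protein of Rps19 and fits the letters of the rule, was set aside because it is no ribosomal subunit. RefSeq lists 77 protein-coding mouse genes that match the rule, and the other 24, among them Rpl11 and Rplp2, had no named probe among those measured and are not analysed here. 4 members, Rpl10, Rpl36a, Rpl39 and Rps4x, lie on the X chromosome.

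Transcripts in the preoptic area (POA) together with the bed nucleus of stria terminalis (BNST), forebrain regions, were measured on 31 Illumina bead arrays. The mice came from the Sex Chromosome Trisomy line, made to model the human XXY condition, in which Sry is inherited independently of the Y chromosome and testes therefore do not depend on it. All mice were of the MF1 strain and 152 days old: 8 XXY males (written XXY.Sry), 7 XX males (XXSry), 8 XX females and 8 XY males (XY.Sry). Both kinds of XX mice lack a Y chromosome, and the XX males carry Sry as XXY and XY males do. The labels do not give gonadectomy or hormone treatment in the sources used here. They call the arrays biological replicates without saying that each is a separate animal, so the spread behind each p-value is that between these samples, which may in part be technical. Arrays came in 2 batches, 5 of each group in batch 1 and 3 in batch 2 (2 for XX males). The stated aim was to ask whether feminized partner preference in this model has a molecular counterpart in the tissue.

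Each ribosome carries a single copy of nearly all of these proteins, assembled with ribosomal RNA in the nucleolus and exported to the cytoplasm. Vertebrate ribosomal protein mRNAs mostly start with a C followed by a run of pyrimidines, the 5′ terminal oligopyrimidine (TOP) motif, through which mTOR signalling controls their translation as a class. In neurons they are among the abundant mRNAs and are also found in axons and dendrites. Mammalian genomes hold many processed pseudogenes of these genes, and whether a probe also bound their transcripts was not tested. In bulk tissue, fewer cells of a type and less RNA per cell cannot be told apart.

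Start regions of 45 of the 53 genes were found in the RefSeq promoter table (build GRCm38.p6). A C at the annotated start followed by at least 4 bases of C or T stood in 9 of them (20%), against 2.7% of the 17491 genes in the table. The ETS-type motif CCGGAAG, searched on both strands from 250 bases before to 50 bases after the start, was present in 18 (40%), against 12.9% of all genes. TCTCGCG was present in 11 (24.4%), against 3.9%, AAGATGGC, a motif of the factor YY1, in 5 (11.1%), against 3.6%, GGGCGG in 28 (62.2%), against 49.2%, and TATAAA in 5 (11.1%), against 14.8%. A gene with several listed starts counted if any of them matched. These matches describe letters near annotated starts and are not measured sites. The lines below run from 40 bases before to 20 bases after the annotated start, in transcript direction, and show all 9 members with such a start. Capitals mark the pyrimidine tract that begins at the start and, in Rps10, Rps21 and Rpl38, also CCGGAAG. Rpl35a has 3 listed starts and Rps21 has 2, of which the one with the tract is shown.
Rpl35a (chr16:33056442-33056501, plus strand): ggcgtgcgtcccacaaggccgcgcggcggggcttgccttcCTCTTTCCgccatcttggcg
Rps27 (chr3:90213629-90213688, minus strand): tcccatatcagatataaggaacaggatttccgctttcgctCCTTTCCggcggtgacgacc
Rps10 (chr17:27635225-27635284, minus strand): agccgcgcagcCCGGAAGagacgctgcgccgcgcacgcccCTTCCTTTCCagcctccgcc
Rps21 (chr2:180257339-180257398, plus strand): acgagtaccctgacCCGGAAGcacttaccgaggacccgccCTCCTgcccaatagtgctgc
Rpl28 (chr7:4792925-4792984, plus strand): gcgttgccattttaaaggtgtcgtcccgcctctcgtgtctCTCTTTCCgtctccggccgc
Rps6 (chr4:86857348-86857407, minus strand): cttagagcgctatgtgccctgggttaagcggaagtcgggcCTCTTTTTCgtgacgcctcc
Rpl35 (chr2:39005112-39005171, minus strand): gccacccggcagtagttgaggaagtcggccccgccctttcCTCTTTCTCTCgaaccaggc
Rpl38 (chr11:114668540-114668599, plus strand): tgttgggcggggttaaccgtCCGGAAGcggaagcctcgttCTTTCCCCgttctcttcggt
Rps15a (chr7:118116128-118116187, minus strand): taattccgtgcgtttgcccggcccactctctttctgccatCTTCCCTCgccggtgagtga
The same windows of the X-linked members hold neither of these and are shown because these genes bear on X chromosome number.
Rpl10 (chrX:74270776-74270835, plus strand): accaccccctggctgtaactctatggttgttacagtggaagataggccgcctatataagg
Rpl36a (chrX:134585614-134585673, plus strand): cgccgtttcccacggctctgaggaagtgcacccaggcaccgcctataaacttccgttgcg
Rpl39 (chrX:37085203-37085262, minus strand): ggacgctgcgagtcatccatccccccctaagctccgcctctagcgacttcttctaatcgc
Rps4x (chrX:102189372-102189431, minus strand): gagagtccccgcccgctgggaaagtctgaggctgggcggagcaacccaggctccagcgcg

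No ribosomal protein gene passed the test between any groups. In XXY males against XY males, 0 of 53 members had an adjusted p under 0.05 (limma moderated test, Benjamini-Hochberg over 11713 genes and unnamed probes), where 0.0512% of everything tested did. 0 members, each by its probe of highest mean, had an unadjusted p under 0.05, against 2.75% of everything tested. 27 members lay above 0 and 26 below, with a median log2 difference of 0.00078, and the median of everything tested was 0.0029. The differences ran from −0.37 for Rps2 to 0.23 for Rpl21, and the 95% interval lay within 1.2-fold either way for 45 members and within 1.5-fold for 52. The exception to the wider bound was Rps2. Rpl21, Rpl23, Rplp0, Rps15a, Rps25, Rps3a1 and Rpsa were the other members outside the narrower one.

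**Figure D1:**
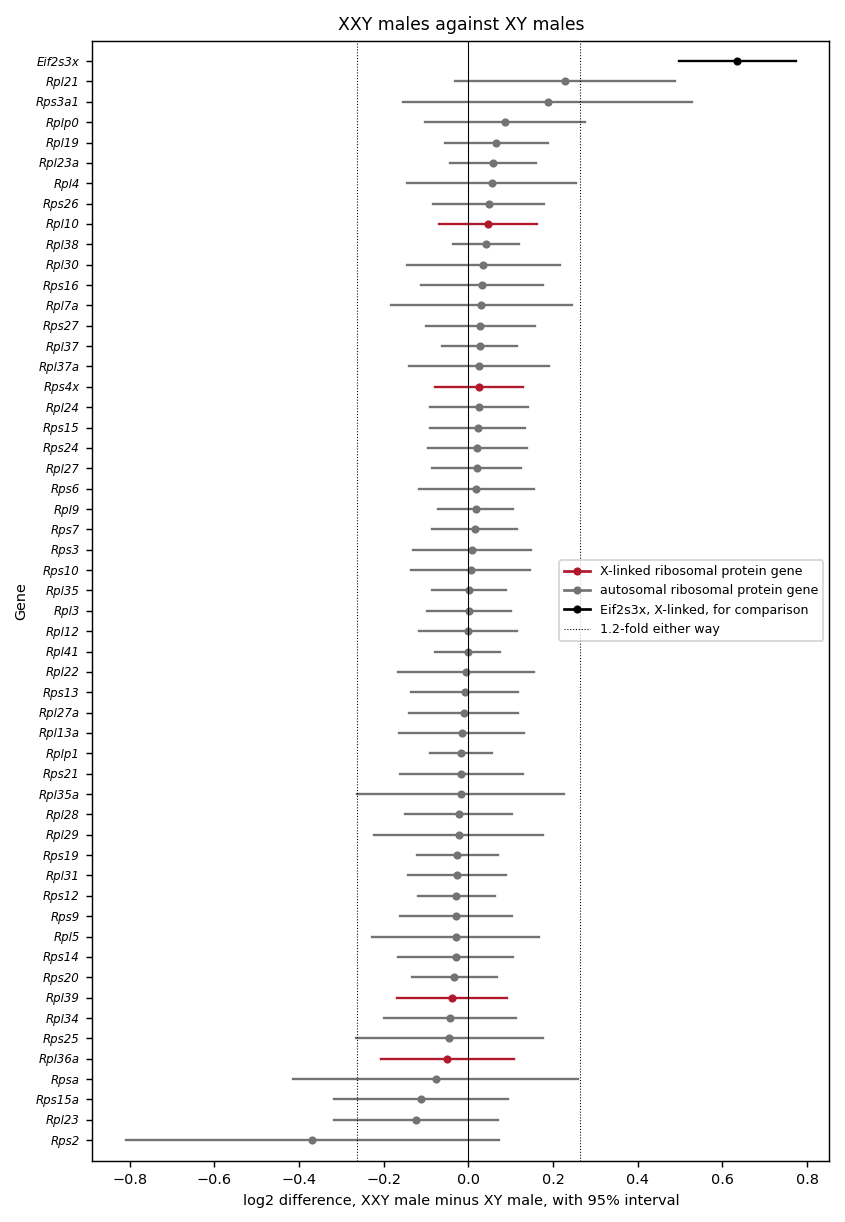
Log2 difference of each ribosomal protein gene between XXY males and XY males (x axis, fitted value with 95% interval, 8 arrays each), 1 gene per row (y axis). X-linked members in red and autosomal members in grey all have intervals that include 0, while the X-linked gene Eif2s3x, in black, lies at 0.64.

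The other comparisons gave the same counts of called members. In XX females against XY males 0 members were called (0.0683% of everything tested), 1 had an unadjusted p under 0.05 (4.23% of everything tested) and the median was −0.02. In XX males against XY males 0 were called (0.0598%), 1 was under 0.05 unadjusted (5.63%) and the median was −0.02. In XXY males against XX males 0 were called (0.0256%), 0 were under 0.05 unadjusted (6.55%) and the median was 0.01. These comparisons share arrays and are given side by side.

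In XXY males against XX females 0 members were called (0.0512% of everything tested), 1 was under 0.05 unadjusted (5.35%) and the median was 0.02. In XX males against XX females 0 were called (0.0256%), 1 was under 0.05 unadjusted (6.73%) and the median was −0.0060. When the 3 groups with at least 2 X chromosomes were set against XY males, 0 were called (0.0683%), 1 was under 0.05 unadjusted (3.12%) and the median was −0.0067. The intervals of 40 to 48 members lay within 1.2-fold in these 7 comparisons. Within batches, the median XXY minus XY difference was 0.02 in batch 1 and −0.03 in batch 2, and 19 of 53 members had the same sign in both.

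After quantile normalization, the level of the whole set did not separate the groups. The mean log2 deviation of the 53 members, with the fitted batch term removed, ran from −0.06 to 0.12 in XXY males, from −0.09 to 0.07 in XX males, from −0.10 to 0.10 in XX females and from −0.11 to 0.08 in XY males. All 4 ranges overlap, with group means of 0.0015 in XXY males, −0.0046 in XX males and 0.00041 in XX females, against 0.0022 in XY males. With arrays scaled only to a common median instead, the members' median XXY minus XY difference was 0.07 (0.03 over everything tested). By the mean deviation after quantile normalization, XXY male 3 was the highest array, with 42 of 53 members above their mean. XY male 1 was the lowest, with 10. By the count of members above their mean, XX female 3 had more, 45, and XX female 1 had fewer, 6. In the heatmap, these arrays are columns of mostly 1 colour, and the genes of widest spread are Rps2, Rps3a1, Rpsa and Rpl21.

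**Figure D2:**
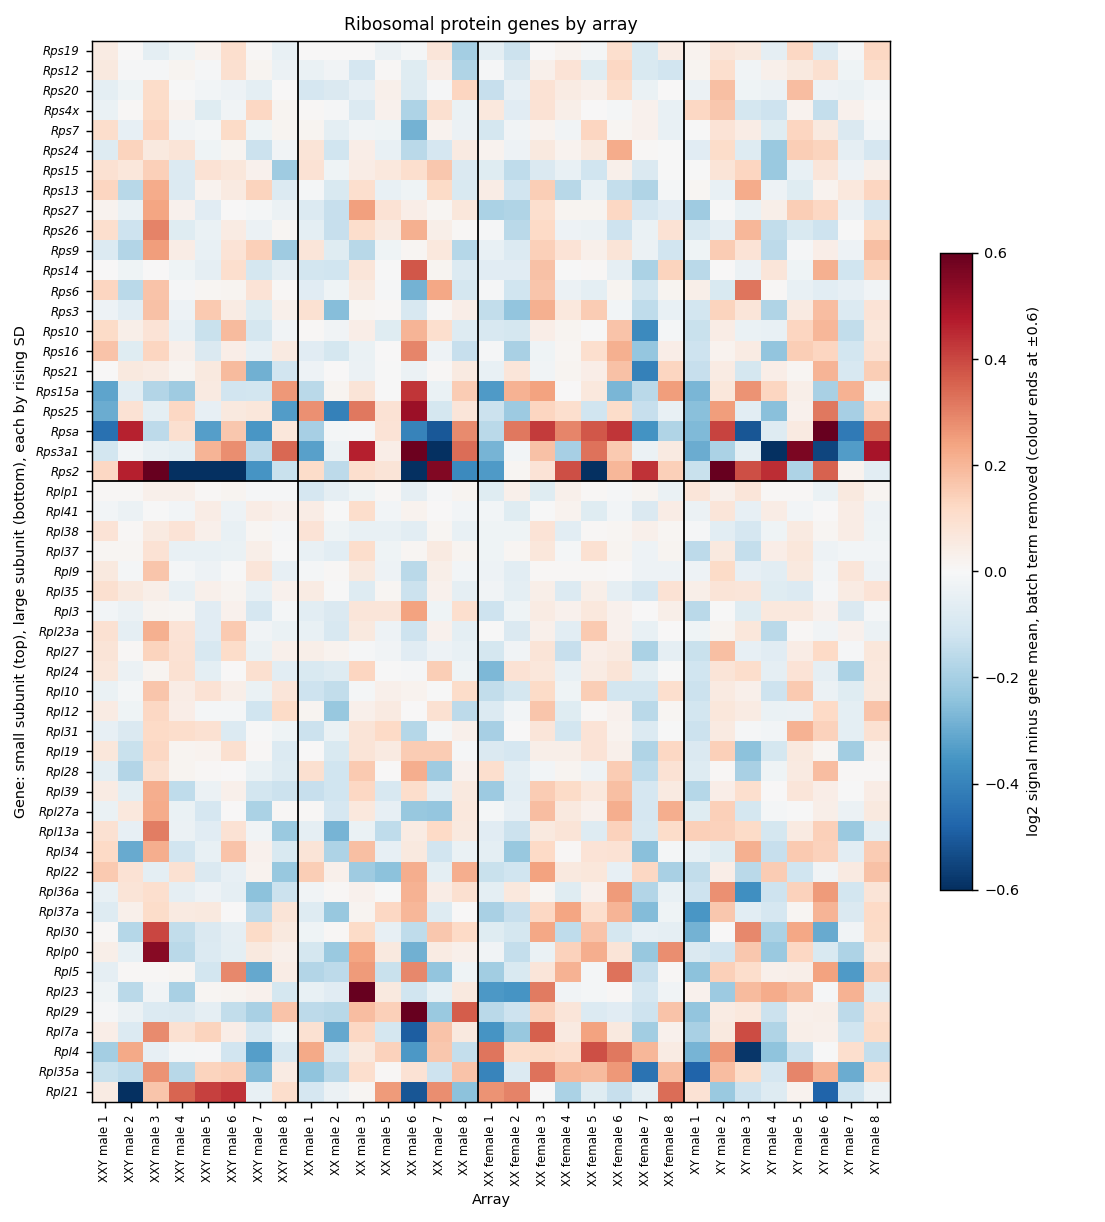
Log2 signal of each ribosomal protein gene minus its mean over arrays, with the fitted batch term removed (colour, ending at ±0.6), for the small subunit above and the large subunit below the line. Columns are the 31 arrays by group, and rows are ordered by the SD over arrays, so that Rps2 and Rpl21 stand at the bottom of their subunits.

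No difference of the X-linked members with the number of X chromosomes was detected. The known X-inactivation escape gene Eif2s3x, a translation initiation factor subunit, served as a check of the labels: its log2 signal (lowest, median and highest array, here and below with the fitted batch term removed) was 11.29, 11.39 and 11.68 in XXY males, 11.25, 11.35 and 11.52 in XX males and 11.23, 11.37 and 11.55 in XX females, against 10.58, 10.80 and 11.08 in XY males. Every array with at least 2 X chromosomes was above every XY male array, by 0.59 on average (95% interval 0.47 to 0.70, adjusted p = 5.41e-08). Xist, the RNA of the inactive X, was detected on 8 of 8 XXY male, 7 of 7 XX male and 8 of 8 XX female arrays, against 0 of 8 XY male arrays.

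Rpl10, a late-joining large subunit protein next to the peptidyl transferase centre, had 14.45, 14.53 and 14.66 in XXY males, 14.34, 14.49 and 14.60 in XX males and 14.34, 14.42 and 14.64 in XX females, against 14.36, 14.49 and 14.65 in XY males. The groups overlap over nearly their whole range. The groups with at least 2 X chromosomes lay 0.0089 above XY males on the log2 scale (95% interval −0.09 to 0.10), and XXY males 0.05 above (−0.07 to 0.16).

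Rps4x is a small subunit protein whose human counterpart escapes X inactivation and has a Y-linked partner, while the mouse gene is subject to inactivation. Its log2 signal was 14.23, 14.31 and 14.42 in XXY males, 14.11, 14.29 and 14.39 in XX males and 14.23, 14.31 and 14.39 in XX females, against 14.15, 14.31 and 14.46 in XY males. The medians of the 4 groups lie within the spread of each group. The difference between groups with at least 2 X chromosomes and XY males was 0.0075 (−0.08 to 0.09), and that of XXY and XY males was 0.03 (−0.08 to 0.13).

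Rpl39, a small protein at the exit tunnel of the large subunit, had 13.83, 13.93 and 14.20 in XXY males, 13.84, 13.92 and 14.10 in XX males and 13.76, 14.04 and 14.16 in XX females, against 13.81, 14.02 and 14.08 in XY males. Rpl36a, another large subunit protein, had 12.31, 12.50 and 12.65 in XXY males, 12.53, 12.58 and 12.76 in XX males and 12.37, 12.54 and 12.81 in XX females, against 12.18, 12.53 and 12.83 in XY males. XY males spanned the ranges of the other groups for Rpl36a, and the lowest Rpl39 arrays were XX female 1 at 13.76 and XY male 1 at 13.81. Between groups with at least 2 X chromosomes and XY males the differences were −0.02 for Rpl39 (−0.13 to 0.08) and −0.00047 for Rpl36a (−0.13 to 0.13), and between XXY and XY males −0.04 (−0.17 to 0.09) and −0.05 (−0.21 to 0.11). The upper bounds of all 4 X-linked members in the comparison by X number, at most 0.13, lie below the lower bound of 0.47 for Eif2s3x. Over 11 other processing settings these differences reached at most 0.08 for Rpl10, 0.07 for Rps4x, 0.04 for Rpl36a and 0.02 for Rpl39.

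**Figure D3:**
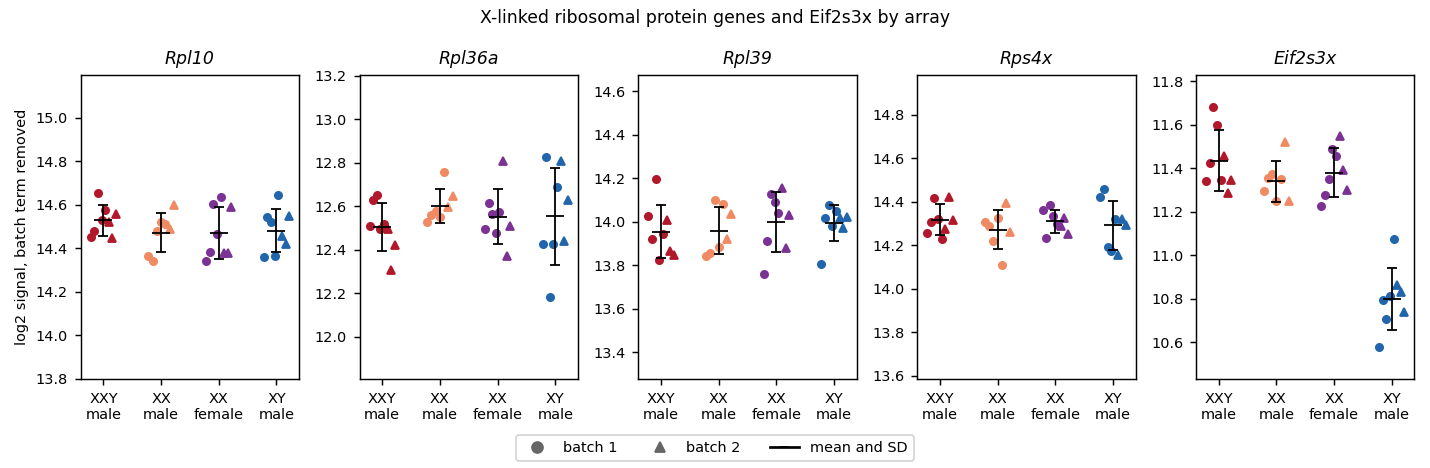
Log2 signal with the fitted batch term removed (y axis) of the 4 X-linked ribosomal protein genes and of Eif2s3x in the 4 groups (x axis); each point is an array, circles batch 1 and triangles batch 2, with mean and SD as bars. The groups overlap in the 4 ribosomal protein genes, and the 8 XY males lie below all other arrays in Eif2s3x.

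Of the large subunit, Rpl4 had the smallest p-values between groups. Rpl4, whose extended loop lines the exit tunnel, had log2 signals of 10.20, 10.30 and 10.53 in XX females, against 9.56, 10.01 and 10.41 in XY males. The difference was 0.33 (SE 0.098, unadjusted p = 0.0023, limma adjusted p = 0.776), with 0.40 in batch 1 and 0.20 in batch 2. XXY males had 9.82, 10.07 and 10.38 and were −0.27 from XX females (SE 0.098, unadjusted p = 0.0093, limma adjusted p = 0.790). XX males had 9.80, 10.21 and 10.38 and were 0.13 above XY males. Groups with at least 2 X chromosomes lay 0.17 above XY males (limma adjusted p = 0.9997). XX females had the highest median, and their range overlapped those of all other groups. Under 11 other processing settings the XX female minus XY male difference stayed between 0.29 and 0.36, with limma adjusted p between 0.534 and 0.9999. Leaving out each array in turn gave 0.26 to 0.38, with limma adjusted p of at least 0.226.

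Other large subunit members of small p in a comparison were Rpl21, Rpl19, Rpl29 and Rpl27a. Rpl21 had 6.25, 6.99 and 7.29 in XXY males, against 6.37, 6.76 and 6.94 in XY males, a difference of 0.23 (95% interval −0.03 to 0.49, limma adjusted p = 0.9997). It was 0.11 without background correction and 0.41 with the other, dimmer Rpl21 probe. Rpl27a, whose mutation gives the Sooty foot ataxia mouse, had 11.72, 11.90 and 12.02 in XX males, against 11.85, 11.99 and 12.17 in XX females, a difference of −0.14 (−0.27 to −0.0027, limma adjusted p = 0.723). In both genes the groups overlap. Rpl29, a surface protein also known for binding heparin, was −0.18 in XXY males against XX males (−0.38 to 0.03), and Rpl19 was 0.10 in XX males against XY males (−0.03 to 0.23). Leaving out each array in turn gave −0.24 to −0.08 for the Rpl29 difference, with −0.08 without XX male 6.

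Of the small subunit, Rps2 had the largest difference and the widest spread. Rps2, at the mRNA entry channel, had 12.69, 13.23 and 14.20 in XXY males, 12.70, 13.55 and 14.03 in XX males and 12.68, 13.59 and 13.91 in XX females, against 13.29, 13.66 and 14.29 in XY males. Low arrays near 12.7 occurred in every group except XY males, and the upper ends of all groups overlap. XXY minus XY was −0.37 (95% interval −0.81 to 0.07, unadjusted p = 0.0977, limma adjusted p = 0.9997), −0.28 in batch 1 and −0.51 in batch 2. The interval allows a level from 0.571 to 1.05 of that of XY males, so it holds both no change and a fall, and these arrays did not settle which.

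**Figure D4:**
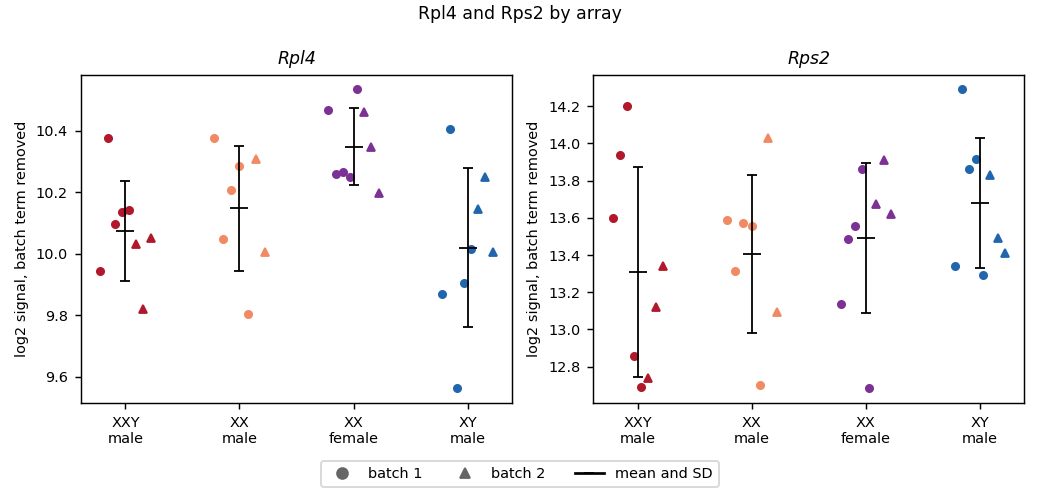
Log2 signal with the fitted batch term removed (y axis) of Rpl4 and Rps2 in the 4 groups (x axis); each point is an array, circles batch 1 and triangles batch 2, with mean and SD as bars. XX females are the highest group for Rpl4 and overlap the others, and Rps2 spreads from 12.69 to 14.20 in XXY males.

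Rps12 had 14.56, 14.70 and 14.78 in XX males, against 14.71, 14.78 and 14.84 in XY males, a difference of −0.10 (95% interval −0.19 to −0.0026, limma adjusted p = 0.874). In groups with at least 2 X chromosomes against XY males Rps12 was −0.06 (limma adjusted p = 0.9997). Rps15 had 13.25, 13.40 and 13.49 in XX males and 13.18, 13.25 and 13.36 in XX females, a difference of 0.12 (−0.0017 to 0.23, limma adjusted p = 0.723). Rps15 was 0.09 in XXY males against XX females, Rps13 was −0.10 in XX females against XY males and Rps7 was 0.09 in XXY males against XX males, each with an interval that includes 0. Leaving out each array in turn gave 0.05 to 0.10 for the Rps7 difference, with 0.05 without XX male 6. The ranges of these genes overlap between the groups compared. Over the 7 comparisons between 5 and 14 of the 22 small subunit members and between 13 and 20 of the 31 large subunit members lay above 0. The fewest of the small subunit, 5, were in XX females against XY males, where 49.7% of everything tested lay above 0.

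Members with further known roles did not pass the test either. Rplp0 and Rplp1 form the stalk that recruits elongation factors. Rplp0 had 8.16, 8.31 and 8.87 in XXY males, against 8.09, 8.23 and 8.48 in XY males (difference 0.09, 95% interval −0.10 to 0.28). Rplp1 had 15.28, 15.29 and 15.32 in XXY males, against 15.25, 15.31 and 15.36 in XY males (−0.02, −0.09 to 0.06). Rps6, the substrate of S6 kinase used as a readout of neuronal activity, had 13.53, 13.71 and 13.87 in XXY males, against 13.60, 13.66 and 14.01 in XY males (0.02, −0.12 to 0.15). The arrays measured its mRNA and not its phosphorylation.

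Rpl5, which binds 5S ribosomal RNA with Rpl11 and can restrain Mdm2, had 13.08, 13.40 and 13.68 in XXY males, against 13.05, 13.46 and 13.63 in XY males (−0.03, 95% interval −0.23 to 0.17). Rps19, the gene most often mutated in Diamond-Blackfan anemia in humans, had 14.56, 14.63 and 14.72 in XXY males, against 14.54, 14.66 and 14.75 in XY males (−0.03, −0.12 to 0.07). Of 19 genes listed for that anemia 12 were measured and 0 were called between XXY and XY males, with a median of 0.0031. Rpsa, known also as the precursor of the laminin receptor, had 5.44, 5.84 and 6.35 in XXY males, against 5.38, 5.88 and 6.49 in XY males (−0.08, −0.41 to 0.26). Its probe was dim, with raw intensities of 149 to 275, and detected on 26 of 31 arrays, while the other 52 members were detected on all.

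Genes around the ribosome were likewise not called between XXY and XY males. Of 22 translation factors and other TOP-class genes 17 were measured and 0 were called, with a median of −0.0025. Their smallest p-values belonged to the initiation factor 3 subunits Eif3h, with a difference of −0.27 (unadjusted p = 0.0350, limma adjusted p = 0.9997), and Eif3l, with 0.05. Of 34 ribosome biogenesis genes 25 were measured and 0 were called, with a median of −0.0062. Ubtf, the RNA polymerase I activator, was −0.10 and Ncl, nucleolin, was 0.09. The 70 mitochondrial ribosomal protein genes that were measured, which build the separate organellar ribosome, had 0 calls and a median of 0.0028. 3 of 10 S6 kinases and 5 of 10 genes of the fusion and L-suffix list were measured, with 0 calls in either. Among them Rps6ka3 was 0.08, Rps6kl1 −0.03, Rpl7l1 0.06 and Fau, whose product is a ubiquitin-like protein fused to Rps30, 0.02. Rps19bp1 was −0.02.

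Markers checked the tissue. 7 of 8 preoptic and BNST markers and 3 of 6 neuronal markers had a named probe, and all of these were detected on every array. 12939 to 14397 probes were detected per array, and array pairs correlated at 0.960 to 0.991. The mean log2 signal of 5 meningeal markers had a median of 11.27 in XXY males, 9.58 in XX males and 9.71 in XX females, against 9.88 in XY males, with ranges that overlap. For 4 striatal markers the median was 8.84 in XXY males, 9.26 in XX males and 8.71 in XX females, against 8.62 in XY males. For 4 thalamic markers it was 10.29 in XXY males, 10.65 in XX males and 10.87 in XX females, against 10.75 in XY males, and the ranges of both lists overlap between groups. 0 meningeal, striatal or thalamic markers were called between groups. Their part in the levels of ribosomal protein genes was not tested. XX male 6, labelled batch 1, stood with batch 2 on the first principal component (32.0% of variance), and with it counted in batch 2, 0 members were called in each comparison of groups.

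Ribosomal protein genes had a smaller spread over arrays than most genes after background correction and tended to vary together. The residual SD on the log2 scale, after group and batch, had a median of 0.118 over members, against 0.231 over everything tested, and 48 of 53 members lay below 0.231. The narrowest were Rplp1 (0.0372), Rpl41 (0.0435), which encodes a tiny basic peptide, Rpl38 (0.0475), whose loss gives the Tail-short mouse, and Rpl37 (0.0621). The widest were Rps2 (0.452), Rps3a1 (0.347), Rpsa (0.341) and Rpl21 (0.262).

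The narrow values moved with the normalization. Members reached raw intensities of 54431, where the highest of the whole scanner table was 56162, and quantile normalization gives the brightest probes of each array nearly the same values. With arrays scaled only to a common median, the SD was 0.212 for Rplp1, 0.203 for Rpl41 and 0.189 for Rpl38. With cyclic loess it was 0.120, 0.120 and 0.0970. 47 members lay below the median of everything tested with median scaling and 48 with cyclic loess, but 31 did when no background was subtracted. In that setting the median SD was 0.116 over members and 0.124 over everything tested.

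Over the 31 arrays, the 1378 pairs of members had a median residual correlation of 0.222, with 79.1% above 0 and 13.7% over 0.5. All pairs of genes and probes tested had a median of −0.0018, with 2.02% over 0.5, and pairs of mitochondrial ribosomal protein genes had 0.0762. Member pairs share the arrays, their normalization and high brightness, and the values are a description. Rpl35a and Rpl39 were the closest pair (0.808), and Rpl21 and Rpl22 the most opposed (−0.510). Rpl35a, Rps27, Rpl39 and Rpl34 had the highest median correlation with the other members (0.452, 0.440, 0.408 and 0.393), and Rplp1 the lowest (−0.0797). The 9 members printed with pyrimidine starts ranged from 0.452 for Rpl35a and 0.440 for Rps27 to 0.0563 for Rpl38 and −0.0118 for Rps15a. The median over member pairs was 0.298 with cyclic loess, 0.498 with median scaling and 0.227 in the submitters' processed values.

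The largest differences of these genes lay between the 2 batches, which the labels name without saying what they were. In batch 2 against batch 1, 26 members rose and 3 fell, 29 of 53 in all, against 44.7% of everything tested (23.2% higher and 21.5% lower). The median of members was 0.11 and that of everything tested 0.01. All 29 had the same sign in each of the 4 groups. They were chosen by the fit over these same arrays, which favours a shared sign, so this is a description and no separate test. With arrays scaled to a common median, 33 rose and 1 fell. In the submitters' processed values 0 members were called between batches, and 3 of all 9704 genes were. The split touched both subunits, with 11 higher and 1 lower in the small and 15 higher and 2 lower in the large subunit.

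Rps3a1, a small subunit protein near the mRNA exit, rose most. It had log2 signals (normalized, batch term kept) of 10.24, 10.93 and 11.37 in batch 2, against 9.36, 10.01 and 10.64 in batch 1, a difference of 0.82 (limma adjusted p = 5.01e-06). Batch 2 lay mostly above batch 1, with some overlap. Rps15a had 8.96, 9.20 and 9.50 in batch 2, against 8.48, 8.85 and 9.25 in batch 1 (0.42). For Rps3a1 and Rps15a the highest batch 1 array was XX male 6, which stood with batch 2 on the first principal component. XY male 5, also of batch 1, had 10.61 for Rps3a1. Rpl29 and Rpl30 rose by 0.42 and 0.34, and Rpl5 rose by 0.33.

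Rpsa had 5.07, 5.65 and 6.18 in batch 2, against 5.68, 6.19 and 6.66 in batch 1, a difference of −0.61 (limma adjusted p = 0.000192). Rpl23, with 13.96, 14.06 and 14.28 in batch 2, against 14.00, 14.33 and 14.97 in batch 1, differed by −0.29, and Rpl37 by −0.08 (limma adjusted p = 0.0425). With median scaling Rpl23 was −0.15 and not called, and Rpl37 was 0.06 with a limma adjusted p of 0.501. Of the X-linked members Rpl36a rose by 0.29, Rpl10 by 0.18 and Rpl39 by 0.12, while Rps4x had −0.04 and was not called.

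7 members had several probes, and these could differ between batches. The Rpl23 probe of highest mean gave −0.29, and its other probes gave 0.15 and −0.00069. The probes of Rpl38 gave −0.04 and 0.30, those of Rps24 −0.10 and 0.13 and those of Rpl31 0.13 and −0.07, with the probe used above first. For Rps3 (0.20 and 0.52), Rps9 (0.17 and 0.46) and Rpl21 (0.04 and 0.22) all probes were higher in batch 2. Probes could also differ between groups. In XXY minus XY males those of Rpl23 gave −0.12, 0.0028 and −0.16 (SE 0.063), each with a limma adjusted p of 0.9997 over all probes kept.

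**Figure D5:**
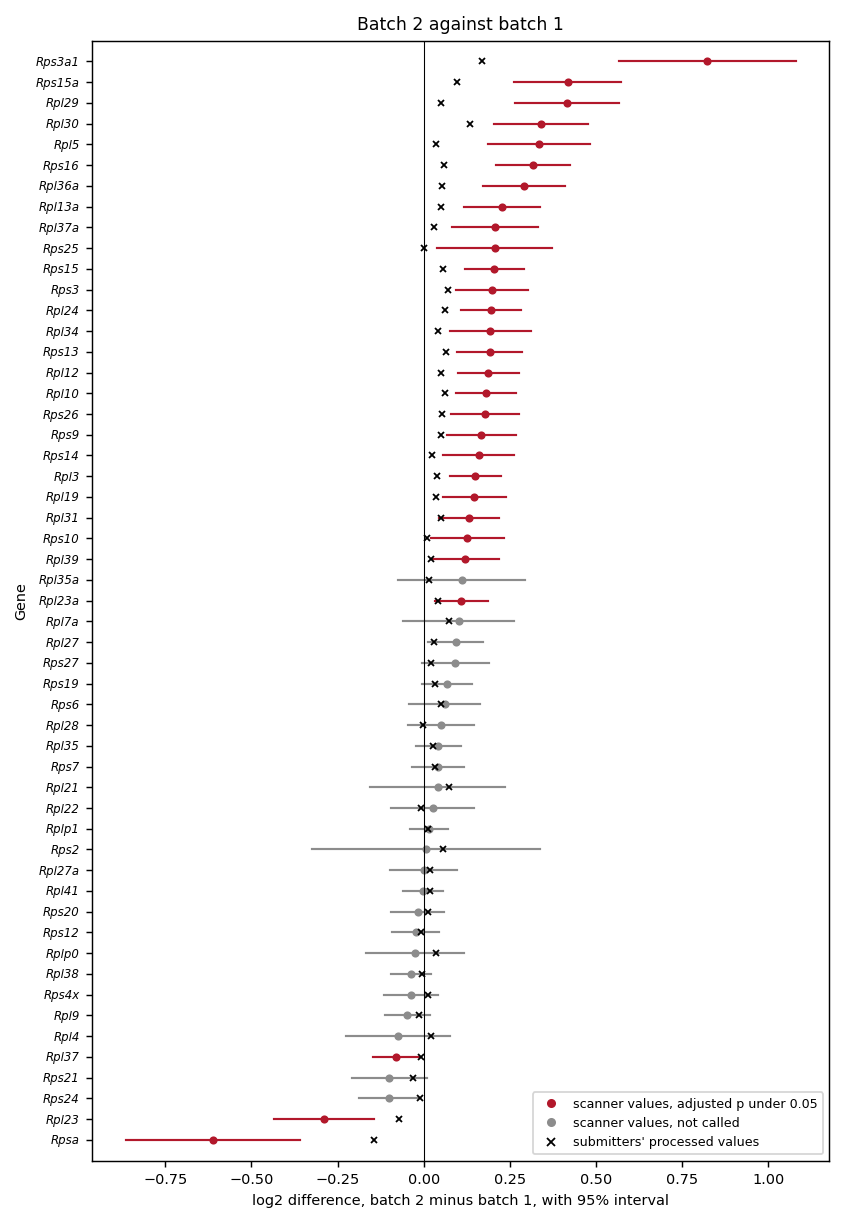
Log2 difference of each ribosomal protein gene between batch 2 and batch 1 (x axis, fitted value with 95% interval, 11 and 20 arrays), 1 gene per row (y axis), red where called. Crosses are the differences in the submitters' processed values, which lie closer to 0 for Rps3a1 and Rpsa.

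The shares of related lists called between batches lay on either side of the 44.7% of everything tested. 31 of 70 mitochondrial ribosomal protein genes rose and 2 fell in batch 2, against batch 1 (47.1% called). 6 of 17 translation genes rose, among them Pabpc1, the poly(A)-binding protein, by 0.59, and 3 fell, among them Eif4b (−0.35), which makes 52.9%. 5 of 25 ribosome biogenesis genes rose, among them Rrp1 (0.52), and 2 fell, among them Nop58, a box C/D snoRNP core protein (−0.70), which makes 28%. Of the L-suffix paralogs Rpl22l1 rose by 0.74 and Rpl36al by 0.16.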

How the data were processed

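The members and the lists were chosen with earlier results of these data known. For 25697 probes on each array, the deposited scanner table gives a mean bead intensity with no recorded normalization and a detection p-value, as its column headers state. Bead numbers (a count) and the standard error of the bead signal, named per the file headers of that deposited table, were not used. The authors' processed table of 12980 probes holds log2 values, a scale inferred here from the scanner intensities. How batch was treated there is not given in the sources used here. The submitters' processing notes name limma without a version. RNA was total RNA labelled with biotin, per the labels.

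Intensities were background-corrected from the detection p-values, quantile-normalized and put on the log2 scale with neqc (offset 16) of limma 3.58.1 in R 4.3.3. Probes with detection p under 0.05 on at least 7 arrays were kept, 1 per gene by highest mean. Names came from the platform annotation, and chromosomes from RefSeq GRCm38.p6. All 31 arrays entered 1 limma fit with group and batch. Adjusted p-values are two-sided and Benjamini-Hochberg adjusted over 11713 tests at 0.05. The code was tested on simulated data. Values "with the batch term removed" subtract the fitted batch effect. Arrays have no read depth, and their number limits the precision.

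Named members were the X-linked ones, the 2 of smallest p per comparison of groups, the 5 largest rises and falls called between batches, the 4 widest and 4 narrowest, and those of set roles (Rplp0, Rplp1, Rpsa, Rps6, Rpl5, Rps19). Other members are examples. Replicate numbers were not used to pair arrays in the main fit. Of 45 pairs of same-numbered arrays 20 correlated above 0.1. Differently numbered pairs were not compared, so whether the numbers mark a shared factor was not settled. Arrays numbered 6 had the highest raw medians, 211 to 259, against 201 for the next, XY male 1. Arrays numbered 2 had the fewest probes detected, 12939 to 13235. Alternatives were no background correction, cyclic loess, median scaling, the processed values, no batch term, batch as a random block, XX male 6 in batch 2, other probe filters and choices, a replicate block, and leaving out each array. The SDs and pair correlations under other normalizations were chosen after seeing the data.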

Additional observations from a re-analysis of the deposited data

Results flagged for a closer look

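For 27 named members and the mean over all members, the 4 groups were examined for an array far from the others of its group, 112 groups in all, and 7 single-gene values stood apart (log2, batch term removed; Dixon's test at 95%). Chance flags about 1 in 20 groups, so 7 of 112 is near that share. In XXY males, Rpl21 was 6.25 on array 2, against 6.81 to 7.29 on the others, and Rplp0 was 8.87 on array 3, against 8.16 to 8.38. In XX males, Rpl23 was 14.82 on array 3, against 14.09 to 14.27. Rps19 was 14.42 on XX male 8, against 14.59 to 14.70, and Rps7 was 13.93 on XX male 6, against 14.15 to 14.23. In XY males, Rpl39 was 13.81 on array 1, against 13.97 to 14.08, and Rps6 was 14.01 on array 3, against 13.60 to 13.73. The causes were not tested.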

How the results depend on the processing

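In all 7 comparisons of groups 0 members were called under every alternative run, the leave-one-out fits included. With arrays scaled only to a common median, the median difference of members was 0.0677 for XXY minus XY males (0.03 over everything tested), 0.0442 for XX minus XY males (0.01 over everything tested) and 0.21 for batch 2 minus batch 1 (−0.00046 over everything tested). Rpl37 between batches reversed to 0.0613 there, and was also not called with cyclic loess, with XX male 6 in batch 2, with the probe of highest variance and in 19 of 31 leave-one-out fits. In the submitters' processed values the members called between batches were 0 and their median was 0.0339; the cause was not tested. Leaving out each array gave 25 to 30 members called between batches and medians of 0.09 to 0.12, and medians of −0.01 to 0.01 for XXY minus XY males. The replicate number as a block gave 0 called members in every comparison of groups, with a median of 0.00078 for XXY minus XY males. Same-numbered arrays correlated at −0.194 to 0.336, and whether the number marks a shared factor was not settled. With median scaling the members' median was also above 0 for groups with at least 2 X chromosomes minus XY males (0.0435), XX females minus XY males (0.0228) and XX males minus XX females (0.0272), each by less than 1 SD of the members' mean over arrays from its main value, which was below 0. The number of arrays limits what could be called: for 8 members, Rps2 and Rps3a1 among them, differences of over 1.2-fold between XXY and XY males lie within the intervals.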
